A study of Mus musculus with 4 samples.

Results

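Ferritin and iron handling genes were examined in polyA tags from the CA1 neuropil of the mouse hippocampus. The set held 8 genes: Fth1, Ftl1, Tfrc, Trf, Ireb2, Aco1, Slc11a2 and Ncoa4. Sites were taken by gene name, and the genes were chosen by name with their tag counts in these data already known, Fth1 leading because its count was high. The level of Fth1 is therefore described and not tested. Of the 8 genes, 4 were listed (Fth1, Ireb2, Ncoa4 and Trf), with 6 of the 9296 sites that carried a gene name and 174 of 34671 tags. Ftl1, Tfrc, Aco1 and Slc11a2 were not listed.

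The study asked which mRNA 3′ ends are found in the dendrites of CA1 pyramidal neurons. The 4 libraries formed 1 group of replicates, all from C57BL/6 mice that carried Camk2a-Cre together with the Pabpc1 cTag allele, with several mice pooled per replicate. In cTag-PAPERCLIP, Cre fuses GFP to Pabpc1, the protein that binds poly(A) tails, here in cells in which the Camk2a promoter has driven Cre, and RNA crosslinked to the fusion is recovered as short tags at the 3′ ends of mRNAs. The neuropil was cut by hand from slices beside the layer of cell bodies, and holds glia and axons as well as the dendrites. No untagged control library and no other compartment were analysed here.

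Cells store iron inside ferritin, a shell built from heavy chains (Fth1), which oxidise the iron, and light chains (Ftl1). Iron enters cells when transferrin (Trf) binds the transferrin receptor (Tfrc) and is taken inside, after which the transporter Slc11a2 carries iron into the cytosol, and Ncoa4 delivers ferritin to lysosomes when iron is needed. The iron regulatory proteins Aco1 and Ireb2 bind a short RNA hairpin, the iron-responsive element, which blocks translation when it lies in a 5′UTR and can protect an mRNA from decay when it lies in a 3′UTR. In the brain, oligodendrocytes are rich in ferritin.

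The 3′ ends that carried the tags are shown first, because each tag count below belongs to such a site. Sequences are from the plus or minus strand of GRCm38, the mm10 assembly, each spanning 30 bases around the listed position, with AATAAA or ATTAAA, the usual polyA signals, in capitals.

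Fth1, chr19:9985055-9985084, plus strand: atttgtaccatttcttcaAATAAAgaattt

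Ireb2, chr9:54912490-54912519, plus strand: tgctgtaaattatttttAATAAAgaaaatt

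Ncoa4, nearer site, chr14:32179229-32179258, plus strand: cATTAAAagcataatggacacatcagttgt

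Trf, chr9:103208883-103208912, minus strand: tacacagagcacaaAATAAAaacgactgct

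At the main Fth1 site the signal began 3 bases after the listed position, and at the Ireb2 site 2 bases after it. A signal lay within 50 bases on either side of all 6 member sites, against 78.1% of the 9293 sites of the table with a window in the reference. The main Fth1 site was in the 3′UTR, 22 bases before the nearest annotated transcript end, and the Ireb2 site 25 bases before one. Over the 7108 sites in 3′UTRs the median was also 22.0 bases before an end, and 58.7% lay 15 to 35 bases before one. The main sites of Fth1 and Ireb2 thus had the usual place of a listed position, while the others did not. The nearer Ncoa4 site was 3 bases before the end of a shorter transcript and 611 bases before the end of the gene. The Trf site lay 102 bases before the nearest transcript end. The remaining pair of sites lay past the annotated genes, 116 bases beyond Fth1 and 2.43 kb beyond Ncoa4, each with 1 tag.

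Fth1, the ferritin heavy chain, carried nearly all tags of the group, with 164 of 174 (94.3%). Replicates 1 to 4 held 75, 61, 16 and 12 Fth1 tags. Of these, 163 were at the main site, and the site beyond the gene had its tag in replicate 1. Fth1 tags were in every library, as they were for 7.76% of the 7202 gene names. Among the 211 gene names with at least 20 tags this was common, since 151 besides Fth1 had tags in every library. Only 6 gene names had more tags, whereas the median gene name had 2.0 tags and 43.7% had 1.

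**Figure D1:**
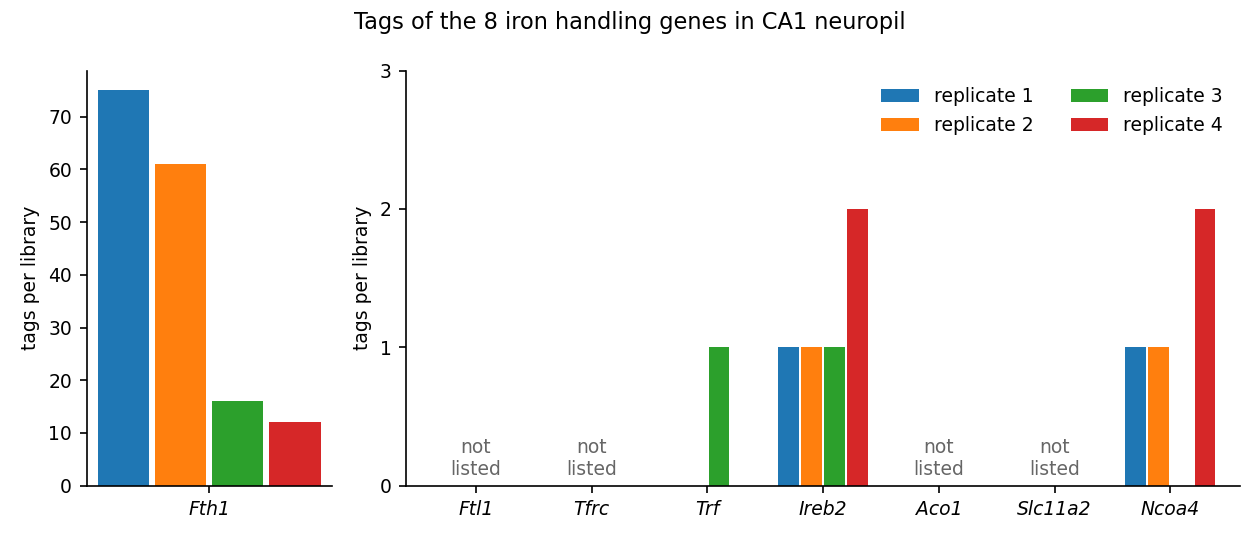
Tags per library (y axis, number of tags) of the 8 genes, with 1 bar per replicate and a separate scale for Fth1 at the left. Fth1 ranged from 12 to 75 tags, no other listed gene exceeded 2 tags in a library, and 4 genes were not listed.

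As a share of all tags of a library, Fth1 made up 0.468% of replicate 1 (95% Wilson interval 0.374 to 0.587%), 0.923% of replicate 2 (0.719 to 1.18%), 0.269% of replicate 3 (0.166 to 0.437%) and 0.197% of replicate 4 (0.113 to 0.344%). Replicate 2 was highest and replicate 4 lowest, a 4.69-fold range. The intervals, which cover counting error only, overlapped for replicates 1 and 3 and for replicates 3 and 4, and for none of the other 4 pairs. The mean share was 0.464 ± 0.327% (SD, n = 4), which placed Fth1 at rank 8 of all gene names. Of the 7 names above it, 3 consisted of sites that resemble Bc1, a short noncoding RNA of neurons, and outside such sites its rank was 4. Within the libraries its rank by tags was 9, 5, 21 and 44. The names next to it in mean share were Mir6982, at 0.489 ± 0.323%, and Snap25, at 0.445 ± 0.403% (SD, n = 4), and the gaps to both were smaller than these SDs. Snap25, a synaptic fusion protein of neurons, had shares of 0.194, 0.0454, 0.605 and 0.935%, so that it was lowest in the library where Fth1 was highest.

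The share of Fth1 was then compared between libraries. An exact Freeman-Halton test, two-sided, set Fth1 tags against all other tags over the 4 libraries, for Fth1 and every other gene name with 20 to 1000 tags. Fth1 differed between libraries (adjusted p = 2.97e-08, Benjamini-Hochberg), as did 69.5% of the gene names tested (146 of 210). The share was 40.2% with a minimum of 10 tags (214 of 532) and 85.5% with a minimum of 50 (47 of 55). Fth1's SD over its mean was 0.704, against a median of 0.825, and 80 of the 210 had a lower value. The other members had too few tags for this test. It compares libraries of 1 group and no conditions. Total tags were 16016, 6609, 5947 and 6099, and Bc1-like sites took 32.9%, 11.8%, 2.59% and 2.07% of them, which lowers every other share most in replicate 1. Outside those sites Fth1 held 0.698, 1.05, 0.276 and 0.201% of the tags, and with TMM effective library sizes 0.695, 0.772, 0.208 and 0.145%. The order of the libraries was the same on all 3 scales, but outside Bc1-like sites the intervals of replicates 1 and 2 overlapped (0.557 to 0.874% and 0.815 to 1.34%) and those of replicates 1 and 3 did not (0.170 to 0.448% in replicate 3), and with TMM replicates 1 and 2 lay close together.

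The use of the sites of Fth1 was compared between libraries by an exact Freeman-Halton test, two-sided (adjusted p = 1.00). With 1 tag outside the main site, Fth1 could not have passed this test in whichever library that tag lay. No conclusion on its site use is drawn. Of the gene names with more than 1 site and enough tags, 16.8% passed this test (17 of 101). The main site held 99.4% of Fth1 tags, and the median over the 101 was 89.2%.

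Marker genes of the cell types that neuropil can hold were counted in the same libraries, although purification through GFP in Camk2a-Cre mice is meant to leave out RNA of cells without the tag. Oligodendrocyte markers held 49, 37, 12 and 9 tags, or 0.306, 0.560, 0.202 and 0.148% of tags, with 8 of 10 genes listed and Mbp, a myelin protein, at 20, 27, 6 and 2. The oligodendrocyte list and Fth1 put the 4 libraries in the same order, and Fth1 had 1.53, 1.65, 1.33 and 1.33 tags for each oligodendrocyte tag. Without Mbp, an alternative chosen after seeing the data, the list was at 0.181, 0.151, 0.101 and 0.115%, highest in replicate 1, the shared order was lost, and Fth1 had 2.59, 6.10, 2.67 and 1.71 tags for each tag of the list. Pyramidal neuron markers held 149, 34, 67 and 104 tags, or 0.930, 0.514, 1.13 and 1.71%, and were highest in replicate 4, where Fth1 was lowest. Snap25 alone gave 36 and 57 of these tags in replicates 3 and 4, and without it, also chosen after seeing the data, the list was at 0.737, 0.469, 0.521 and 0.771%. They had 8 of 10 genes listed, but the defining genes Camk2a and Slc17a7 were not listed. Fth1 had 0.503, 1.79, 0.239 and 0.115 tags for each pyramidal tag. Astrocyte markers (10 of 10 listed) were at 0.443, 0.348, 0.370 and 0.197%, with 1.06, 2.65, 0.727 and 1.00 Fth1 tags for each of theirs. Microglial markers held 24, 10, 5 and 1 tags, with Cx3cr1, P2ry12 and Tmem119 not listed and most tags from Cst3. Red blood cell markers, mostly Hbb-b1, held 4, 37, 78 and 9 tags. Markers of endothelium and choroid plexus held 4, 3, 4 and 1 tags, and interneuron markers 8, 2, 8 and 15. The part of these cell types in the Fth1 counts was not tested, and in such material more of a cell type and more RNA per cell cannot be told apart.

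**Figure D2:**
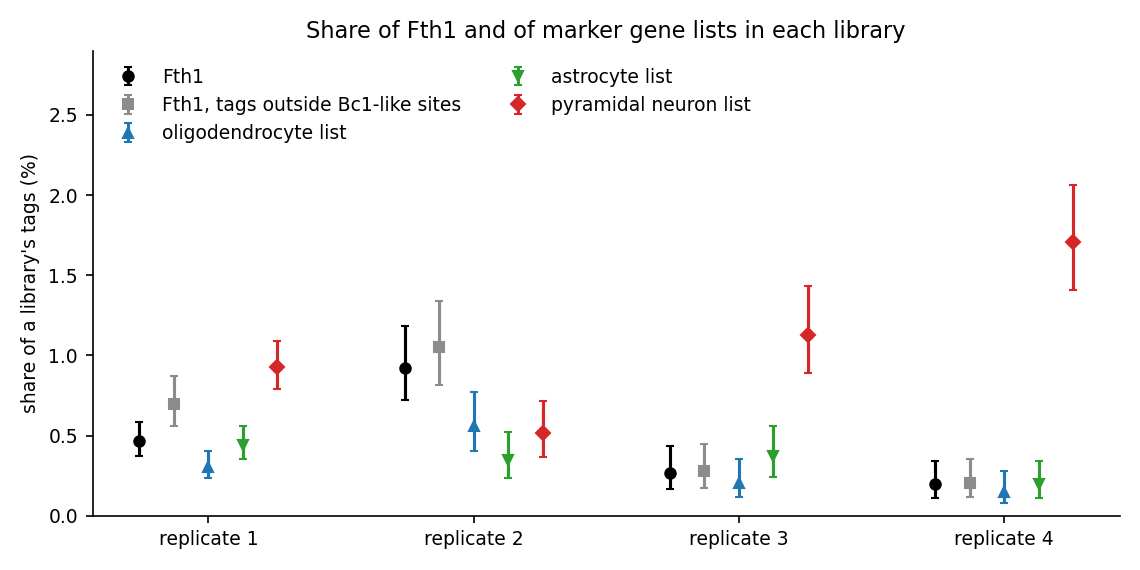
Share of the tags of each library (y axis, percent) for Fth1, for Fth1 outside Bc1-like sites and for the summed oligodendrocyte, astrocyte and pyramidal neuron markers, as points with 95% Wilson intervals. Fth1 and the oligodendrocyte list were both highest in replicate 2, at 0.923% and 0.560%, with 27 of the 37 oligodendrocyte tags of that library from Mbp. Without Mbp, not drawn, the oligodendrocyte list was highest in replicate 1, at 0.181%, against 0.151% in replicate 2. The pyramidal neuron list was lowest in replicate 2, at 0.514%.

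The genes whose shares were most like those of Fth1 were sought among 151 gene names with tags in all 4 libraries and at least 20 tags, by the Euclidean distance of log2 shares over the 4 libraries. The nearest was Ncdn, a neuronal protein of dendrites, at a distance of 1.05 with 48, 39, 12 and 15 tags. It was followed by Selenow, a small selenoprotein, at 1.06 with 58, 38, 10 and 10 tags, and by Rplp1, a ribosomal protein, at 1.51 with 52, 34, 11 and 6 tags. Tmsb4x, which binds actin monomers, was at 1.55 with 77, 29, 16 and 26 tags. Dlg4, the postsynaptic scaffold PSD-95, was at 1.61 with 45, 26, 11 and 17 tags. The median distance over the 151 was 5.33. Since the 5 were picked for this likeness, their high and low libraries follow from the choice.

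**Figure D3:**
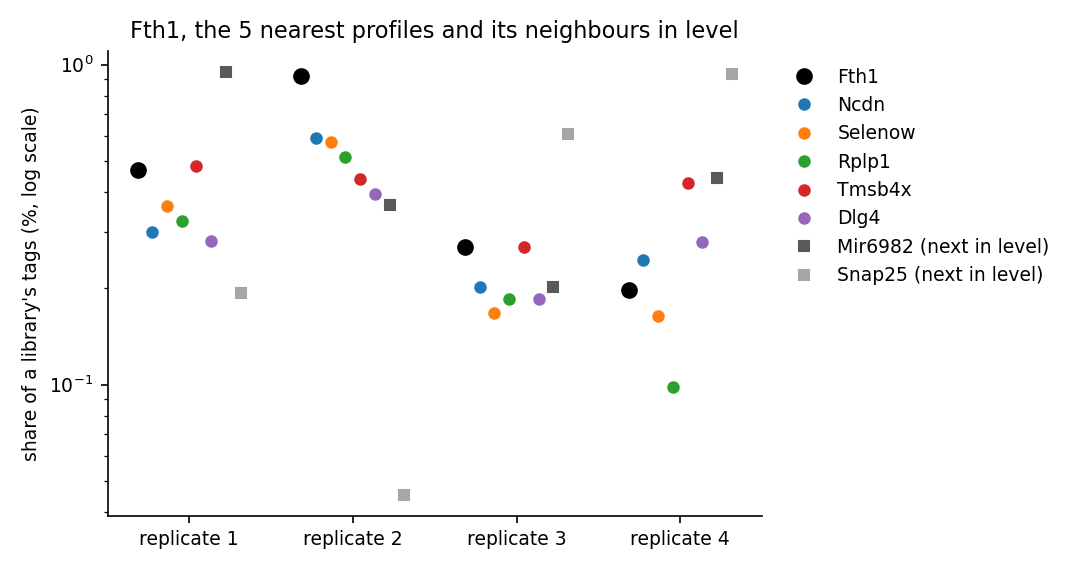
Share of the tags of each library (y axis, percent, log scale) for Fth1, for the 5 gene names with the nearest profile and for the names next to Fth1 in mean share (squares), offset sideways within each replicate. Fth1 and 4 of the 5 nearest names were highest in replicate 2, where Snap25 was at 0.0454%.

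Ireb2, an iron regulatory protein, had 1, 1, 1 and 2 tags at its single site. These few tags were spread over all 4 libraries, with a mean share of 0.0177 ± 0.0111% (SD, n = 4), and 80.4% of gene names had fewer tags. Ncoa4, the ferritin receptor of autophagy, had 1, 1, 0 and 2 tags over its pair of sites, of which the nearer had 0, 1, 0 and 2. Trf, the iron carrier transferrin, which in the brain is made mainly by oligodendrocytes and choroid plexus, had 1 tag, in replicate 3. Together the members other than Fth1 held 2, 2, 2 and 4 tags, too few for differences between libraries to be seen at this depth. Of the 6 member sites, 3 had tags in more than 1 library, against 34.2% of all named sites.

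The iron-responsive elements of the member transcripts are shown because they tie Fth1 and Ftl1 to the iron regulatory proteins. UTRs of 21888 genes were searched on the transcript strand for a C, 5 bases, the loop CAGTGN and 5 bases able to pair with the first 5, G-U pairs allowed. The loop is in capitals, with 6 bases added on either side of the match.

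Fth1, 5′UTR, chr19:9982732-9982760, plus strand: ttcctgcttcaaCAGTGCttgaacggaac

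Ftl1, 5′UTR, chr7:45459779-45459807, minus strand: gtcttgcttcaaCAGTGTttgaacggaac

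Tfrc, 3′UTR, chr16:32631219-32631247, plus strand: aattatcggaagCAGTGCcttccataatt

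Tfrc, 3′UTR, chr16:32631710-32631738, plus strand: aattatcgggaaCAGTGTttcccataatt

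Of the 8 member genes, 3 had a match. The search took only this loop and an unbroken stem, so elements of another form would be missed. The lack of a match in the other members, Slc11a2 among them, does not show that they have no element. Fth1 and Ftl1 each had 1 in the 5′UTR, as 0.142% of all genes did (31), and Tfrc had 4 in its 3′UTR, where 0.589% of genes (129) had any. Among the 31 genes with a 5′UTR match, 17 were listed (54.8%), and among the 129 with a 3′UTR match 64 (49.6%), against 29.4% of coding genes. The 17 held 228 tags in all, of which Fth1 had 164, and Fth1 was the only one with at least 20 tags. A match is a description of the letters, and tags at the 3′ end do not show whether the element was bound.

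Of the ferritin chains, Fth1 had 164 tags and Ftl1 was not listed. Both mRNAs have processed copies in the genome, so the uniqueness of their 3′ ends was measured as the number of 25-base words, out of 76 in the last 100 bases of the gene, that occur again elsewhere in the genome. Fth1 had 40 repeated words (52.6%), each with at most 5 copies, and Ftl1 had all 76 (100%), with up to 13 copies. Of 21911 coding genes, 6.23% had all 76 words repeated, and 65 of these 1366 genes (4.76%) were listed, compared with 26.3% of the 5213 genes with 1 to 75 repeated words, the class of Fth1 and Trf, and 32.6% of the 15332 genes with none. Trf had 59 repeated words at its annotated gene end, but none in the window of its listed site. Tfrc, Aco1, Slc11a2, Ireb2 and Ncoa4 had none at their gene ends, and of these Tfrc, Aco1 and Slc11a2 were not listed. The window of the main Fth1 site also had 40 repeated words of 76 and that of the nearer Ncoa4 site had 55, so the 163 tags of the former and the 3 of the latter are uncertain in their origin. How tags with more than 1 match in the genome were handled is not given in the sources used here, and its part in these counts was not tested.

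**Figure D4:**
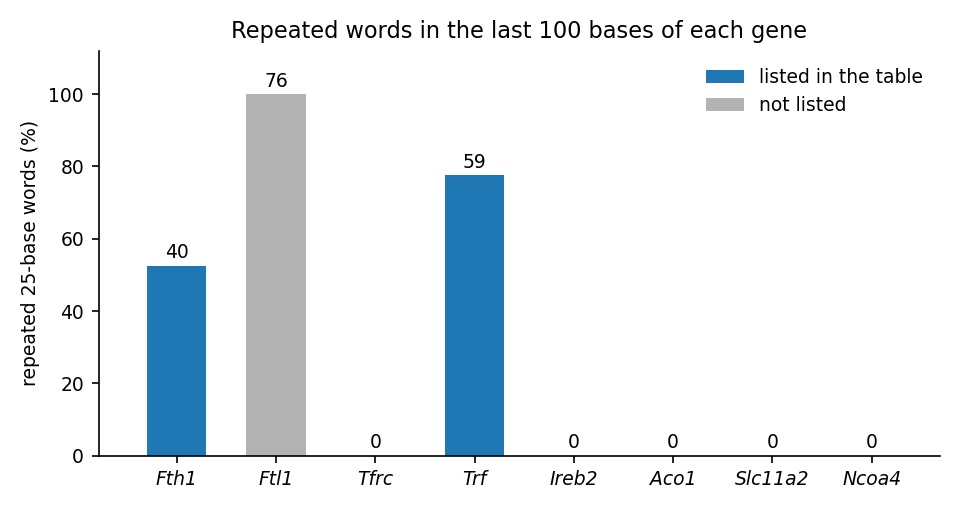
Percent of the 25-base words in the last 100 bases of each gene (y axis) that occur more than once in the genome, with the number of such words out of 76 above each bar, in blue for genes listed in the table and in grey for the others. Ftl1 stood at 76 of 76, Trf at 59, Fth1 at 40 and the other 5 genes at 0.

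Tags at sites that share words with the ferritin ends appeared under other names. A site named 4930487D11Rik on chromosome 5, between annotated genes and shortly before the pseudogene Gm2810, shared 12 words with the main Fth1 site in an unbroken run of up to 36 bases, and had 1, 15, 1 and 1 tags. It was highest in the library where Fth1 was highest. A site in an intron of Braf, 138 bases past the pseudogene Fth-ps2, shared 21 words with the main Fth1 site and had 1 tag, in replicate 2. A site named F630206G17Rik on chromosome 11, 151 bases past the pseudogene Gm12164, shared 63 words with the annotated Ftl1 end in a run of up to 87 bases, and had 0, 2, 0 and 1 tags. These tags cannot be assigned to a ferritin gene or to a copy from the counts. Adding the first 2 of these sites to Fth1, an alternative chosen after seeing the data, gave a mean share of 0.535 ± 0.434% (SD, n = 4).

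Of 71 other gene names of iron metabolism in 6 lists, with Meltf and Mfi2 counted as separate names, 27 were listed (38.0%, against 29.4% of coding genes). The median was 2.0 tags per listed gene, the median of all gene names. The 27 held 21, 15, 40 and 51 tags, a share that was lowest in replicate 1 (0.131%) and highest in replicate 4 (0.836%). Much of this came from Cybrd1, a ferric reductase, with 0, 0, 17 and 19 tags at a site 4.55 kb past the gene with no polyA signal within 50 bases. Its tags were in replicates 3 and 4 alone, where Fth1 had its fewest. Names outside the iron genes split the same way, such as Gpihbp1 (0, 0, 0.706 and 1.28%) and Tas1r2 (0, 0, 0.572 and 0.853%). Akap14 split the reverse way (0.437, 0.106, 0 and 0%). Whether the site named Cybrd1 belongs to that gene was not tested. The list of ferrireductases and uptake genes that holds Cybrd1 had 6 of 12 names listed. In it, Ndfip1, an adaptor that lowers Slc11a2 protein, had 3, 2, 3 and 9 tags, and Lcn2, which binds iron-laden siderophores, had 0, 5, 0 and 0.

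Iron chaperones that load ferritin were present at low counts. Pcbp1 had 3, 0, 3 and 5 tags and Pcbp2 had 3, 1, 1 and 2, and their list of ferritin relatives, chaperones and turnover genes had 3 of 5 genes listed. Mitochondrial iron and iron-sulfur cluster genes had 9 of 19 listed, with 8, 4, 8 and 13 tags. Among them Isca1, a cluster assembly protein, had 1, 2, 2 and 2 tags. Iscu, the assembly scaffold, had 1, 0, 3 and 9 tags, but 12 of these 13 were at a site 43.4 kb past the gene. Cytosolic iron-sulfur assembly genes had 3 of 11 listed with 1, 1, 2 and 0 tags. Genes of heme synthesis, export and breakdown had 5 of 16 listed with 1, 1, 5 and 2 tags, including Alas2, which is also in the red blood cell list. Cellular export and oxidation genes had 1 of 8 listed, under the name of the exporter Slc40a1, with 1 tag in replicate 2. That tag was at a site between annotated genes, 50.9 kb past Slc40a1, with 58 of 76 words repeated. Whether the site belongs to Slc40a1 was not tested. The highest count among the 71 gene names was the 36 tags of Cybrd1.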

How the data were processed

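The authors deposited whole-number tag counts, not normalized, in 4 replicate libraries, for stranded 1-base positions that carry a gene name, with 1 exception. As the methods describe, genomic clusters of tags were called as polyA sites by CTK. The submitters' processing notes name cutadapt, Novoalign and mm10, and no versions. By its name, the table holds neuropil tags that overlap Camk peaks. The methods describe polyA sites from Camk2a-Cre cTag-PAPERCLIP of whole hippocampus, kept above a minimum of tags and of the gene's share, which are the likely source of these peaks, so a gene that is not listed may still have had tags. Duplicate removal is not given in the sources used here. The site with no gene name (1 tag, 0.00288% of all) was left out of totals and tests.

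Counts were summed by gene name as given and divided by each library's total. Intervals are 95% Wilson intervals. They and the tests cover counting error only and treat each tag as independent. Tags may share a molecule through PCR, in which case the intervals are too narrow and the p-values too small. Per the labels the libraries are replicates, with several mice per pool. Sites were placed on GRCm38 with GENCODE vM21 annotation, and no site lay past the end of its chromosome. A site was called Bc1-like (112 sites) when at least 10 of 63 words of 12 bases from the first 74 bases of Bc1 occurred within 75 bases of it. Windows for words ran from 75 bases before to 25 after a site. The exact Freeman-Halton test (Python 3.11.15, numpy 2.4.6, numba 0.67.0, scipy 1.17.1 for intervals) covered gene names with at least 20 tags and was checked on simulated data. Hdac8, over 1000 tags, was left out of it. TMM factors came from edgeR 4.0.16 in R 4.3.3.

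The members and all gene lists were chosen with earlier results of these data known. The genes named were the 8 members, the 5 nearest to Fth1 in profile, its neighbours in mean share, other iron genes with at least 5 tags, and the genes that lead or define a marker list. Some single genes that this rule names are not reported here. Slc40a1, Alas2, Gpihbp1, Tas1r2, Akap14, the sites that share words with ferritin and the details of single marker genes were named after their values were seen. Alternatives left out each replicate, or changed the total, the sites, the gene names, the minimum count, the signal window and the stem.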

Additional observations from a re-analysis of the deposited data

Results flagged for a closer look

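Of 32 results with 4 library values, 5 had 1 library far from the other 3 (gap to the nearest over the whole range above Dixon's critical value). Chance flags about 1 in 20 such groups, a rate that does not hold for counts this low, since any result with tags in 1 library alone is flagged at 1.00 by construction. Total tags were flagged at 0.934, with replicate 1 at 16016 tags and the others between 5947 and 6609. The share of Trf was flagged at 1.00 and that of the export and oxidation list at 1.00, each through its only tag. The share of Lcn2 was flagged at 1.00, with all 5 of its tags in replicate 2. The share of Isca1 was flagged at 0.877, with 1 tag in replicate 1 and 2 tags in each of the others. Neither Fth1 nor the members summed were flagged.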

How the results depend on the processing

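The mean share of Fth1 (0.464%) moved by less than 1 SD under all 9 alternatives, from 0.311% without replicate 2 to 0.606% over sites in more than 1 library, and that of the members summed (0.500%) ran from 0.349 to 0.646%. The difference of Fth1 between libraries passed the test under every alternative run, with adjusted p from 3.89e-10 without Bc1-like sites to 0.00837 without replicate 2. The count of gene names that differed between libraries (146) was 84, 82, 107 and 97 without replicates 1 to 4, or 75%, 60.3%, 68.2% and 67.4% of the fewer names tested against 69.5%, and 47 of 55 (85.5%) with at least 50 tags, against 214 of 532 (40.2%) with at least 10. The count whose use of sites differed (17) was 7, 10, 8 and 8 without replicates 1 to 4. It was 7 of 23 with at least 50 tags, 14 (5.47% of those tested) with at least 10 and 11 with vM21 names. Where the other site of Fth1 remained, its adjusted p was 1.00, and with 1 tag at that site it could not have passed. Fth1 had no value without replicate 1, over sites in more than 1 library or with vM21 names, where it has 1 site. A polyA signal within 50 bases upstream only was found at 3 of the 6 member sites, against 30.3% of all sites. Matches to the iron-responsive element with Watson-Crick stems alone were in 3 member genes, as before, although 1 of the 4 Tfrc matches was lost. No paired analysis was possible because the labels give 1 group. Depth limits all members other than Fth1, since 1 tag was 0.00624 to 0.0168% of a library.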
